A study of Mus musculus with 3 samples.

Results

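Immediate early genes are transcribed within minutes of a stimulus, and 10 of them were described here in single mouse cells: Fos, Fosb, Jun, Junb, Atf3, Egr1, Klf6, Ier2, Dusp1 and Zfp36. They were listed by name, as widely used members of the class. All 10 were listed in each of the 3 count tables, among 18969 genes shared by the 3 (22439 in embryonic stem cells, 23371 in cardiac precursor cell cultures and 24229 in cardiac bodies). The study followed allele-specific expression along the cardiac lineage in male F1 mouse cells of the cross labelled C57BL/6 x CAST/EiJ (C57BL/6J mothers in the study's methods), and every group carried that genotype. All 3 cultures grew with serum. The embryonic stem cells (mESC) also had LIF and a pair of inhibitors, of MEK and of GSK3. The cardiac precursor cell cultures (CPCC) were taken from dissociated embryoid bodies, formed with ascorbic acid, and passaged in medium with EGF and Fgf2. The cardiac bodies (CB) were beating aggregates that had been grown with ascorbic acid and picked by hand. The methods give TrypLE for mESC and, with forced pipetting, for the embryoid bodies that gave CPCC. They do not state how CPCC cells were released at harvest. CB were released with TrypLE plus trypsin, for longer and with pipetting. Culture, growth factors and, as far as it is stated, the way cells were released therefore differed together. Their parts in a difference between cultures cannot be told apart.

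Immediate early genes need no new protein to be switched on. Growth factors, stress and serum act on them through the ERK, p38 and JNK kinases, which activate factors already bound at the promoters, such as SRF with its ternary complex partners and CREB. The transcripts are short-lived, and several of the proteins they encode end the response. Enzymatic release of cells from a tissue is itself a known stimulus of these genes, so in single-cell data their levels can reflect the culture, the handling or both.

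Promoter windows, taken from 250 bases before to 50 after the start, were found for 8 of the 10 genes in RefSeq (GRCm38.p6), and the 250 bases upstream were searched on both strands. The cAMP response element is a binding site of CREB and ATF factors, and its core TGACG lay in 5 of the 8 windows, beside 17.8% of 32851 mouse promoters. It lay in Fos, Fosb, Junb, Atf3 and Dusp1. The full element TGACGTCA lay in 1 of 8, that of Dusp1, beside 1.55% of all. The AP-1 site TGANTCA, which Fos and Jun proteins bind, was in 0 of 8 beside 6.75%, and the EGR site GCGNGGGCG was in 2 of 8, Fosb and Zfp36, beside 4.70%. A CArG box, the binding site of SRF, was in 1 of 8, Zfp36, beside 1.47%. A match describes the letters of the window and not a bound site. The stretches of Fos, Fosb and Dusp1 are given as examples from the 5 genes with the core. Capitals mark the core, or the full element in Dusp1, and each stretch reads 5′ to 3′ toward the start. Those of Fosb and Dusp1 end 7 and 48 bases before it, where an annotated exon begins.
Fos, GRCm38.p6 chr12:85473690-85473889, plus strand: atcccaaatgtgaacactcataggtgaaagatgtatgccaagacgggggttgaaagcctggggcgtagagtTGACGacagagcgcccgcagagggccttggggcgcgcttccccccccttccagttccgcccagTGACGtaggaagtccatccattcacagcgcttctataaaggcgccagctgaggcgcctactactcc
Fosb, GRCm38.p6 chr7:19310052-19310245, minus strand: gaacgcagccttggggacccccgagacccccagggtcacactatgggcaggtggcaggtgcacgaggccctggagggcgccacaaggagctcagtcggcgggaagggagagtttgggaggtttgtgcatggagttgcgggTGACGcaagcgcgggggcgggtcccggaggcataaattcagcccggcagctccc
Dusp1, GRCm38.p6 chr17:26508520-26508672, minus strand: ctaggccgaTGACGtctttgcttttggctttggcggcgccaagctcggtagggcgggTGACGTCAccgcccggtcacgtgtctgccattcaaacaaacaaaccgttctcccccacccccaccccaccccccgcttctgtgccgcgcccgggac

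The tables held 215 mESC cells in 3 pools, 175 CPCC cells in 2 pools and 232 CB cells in 3 pools, a pool being a set of cells that share a prefix in the column names. Each culture is 1 sample. The mESC sample is titled as a triplicate and the study describes biological replicates. Its methods say that libraries were pooled by chip and these pools then merged to 8, the number of prefixes here. A prefix can thus hold cells of more than 1 chip. The clone behind each prefix is not given in the sources used here, so pools were not taken as replicates and differences are given as sizes with no test. The median cell held 1528316 counts in mESC, 1437414 in CPCC and 1397869 in CB. Intervals are 95% intervals (exact Poisson or Clopper-Pearson) and cover counting error only. Pools differed in what they held, by marker genes summed in CPM (summed counts scaled to a total of 1000000). Fibroblast markers summed to 14746, 999 and 15159.8 CPM in CB pools 1, 2 and 3. Cardiomyocyte markers summed to 320.1, 1349 and 23.7 CPM there, and 7 of the 12 were under 1 CPM in pool 3, although CB cells are labelled as mature cardiac cells. In CPCC, macrophage markers summed to 17.9 CPM in pool 1, where 9 of 10 were under 1 CPM, and to 4609.7 CPM in pool 2, where none was.

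The 10 genes were low in mESC, intermediate in CPCC and highest in CB. Their summed level was 284 CPM in mESC (389, 245 and 223 in pools 1 to 3), 1204 CPM in CPCC (731 and 1647) and 6360.4 CPM in CB (7431, 1597 and 10268). The low CB pool was close to the high CPCC pool, and every CPCC pool lay above every mESC pool. Every one of the 10 had its highest culture level in CB, although for Klf6 the CPCC level was close to it.

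**Figure D1:**
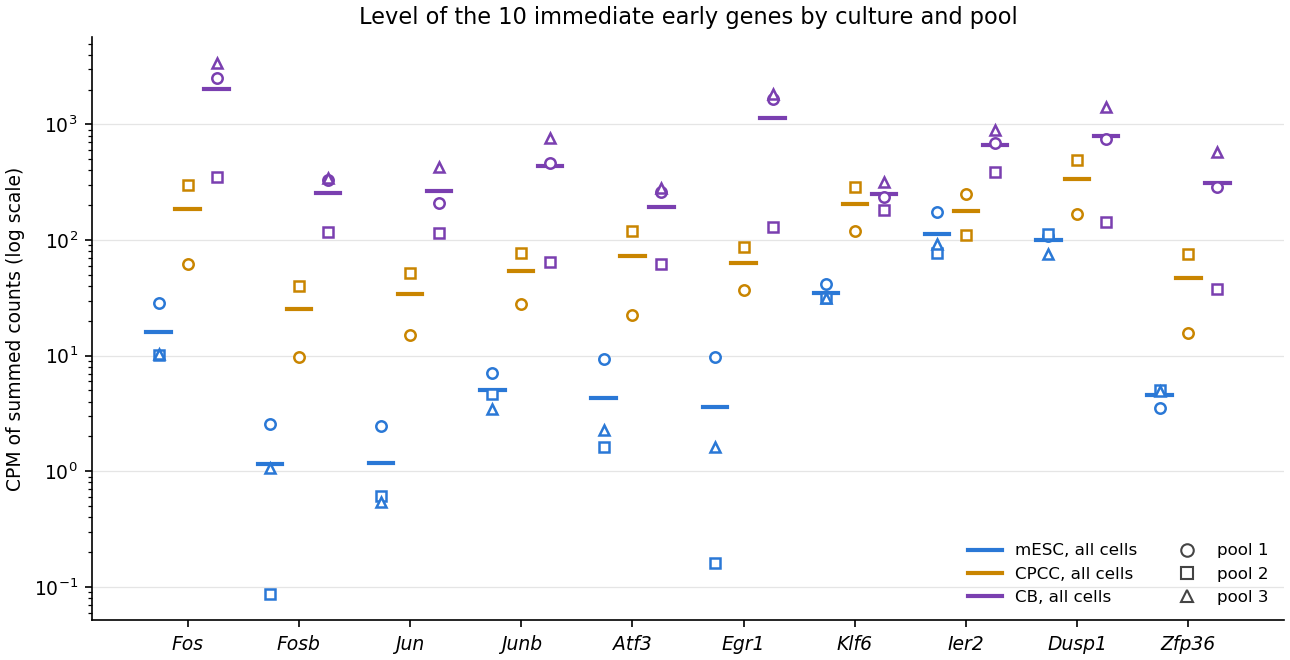
Level of the 10 immediate early genes in each culture, in CPM on a log axis, with a line for the sum over all cells and a symbol for each pool. Fos runs from 16.0 CPM in mESC to 2044 CPM in CB, and CB pool 2 lies below the other CB pools for every gene.

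Fos, on chromosome 12 (GRCm38, 85473890 to 85477273, plus strand), encodes the founding partner of the AP-1 transcription factor. Its level was 16.0 CPM (15.6 to 16.4) in mESC, with 28.4, 10.2 and 10.3 CPM in pools 1, 2 and 3. In CPCC it was 186 CPM (184 to 187), with 62.0 and 301 CPM in pools 1 and 2. In CB it was 2044 CPM (2039 to 2049), with 2529, 355 and 3385 CPM in pools 1, 2 and 3. No pool of a culture overlapped with a pool of another, and CB was 128 times mESC and 11.02 times CPCC. Fos was detected (at least 1 count) in 24.2% of mESC cells (18.6 to 30.5), 62.3% of CPCC cells (54.7 to 69.5) and 91.4% of CB cells (87.0 to 94.7). With every cell thinned to 430000 counts, which left out 22, 18 and 22 shallower cells, the shares were 24.4%, 62.4% and 92.4%, so depth moved them little. The median CB cell held 1376 CPM of Fos and the highest 13439 CPM. In CPCC 1 cell held 21.8% of all Fos counts, against 5.12% for the top CB cell.

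Fosb encodes a Fos relative that also pairs with Jun proteins (chromosome 7, 19302696 to 19310051, minus strand). It stood at 1.15 CPM in mESC (2.55, 0.0874 and 1.07 in pools 1 to 3), at 25.3 CPM in CPCC (9.71 and 39.8) and at 254 CPM in CB (332, 117 and 346). The pools of the 3 cultures did not overlap, and the share of cells with Fosb was 7.91%, 43.4% and 82.3% in mESC, CPCC and CB.

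Jun is the central AP-1 partner (chromosome 4, 95049034 to 95052222, minus strand). Its level was 1.18 CPM in mESC (2.47, 0.612 and 0.542 in pools 1 to 3), 33.9 CPM in CPCC (14.95 and 51.6) and 267 CPM in CB (209, 116 and 432). The pools were again apart between all cultures, but 1 mESC cell held 32.9% of the mESC counts. Junb, a Jun relative (chromosome 8, 84974484 to 84978718, minus strand), was at 5.05 CPM in mESC (7.09, 4.62 and 3.43), 53.5 CPM in CPCC (27.8 and 77.6) and 439 CPM in CB (466, 65.1 and 769.6). Here CB pool 2 lay between the CPCC pools. Jun shares exon sequence with Junos, and Junb with Prdx2, on the opposite strand, and the use of strand in counting was not stated.

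Atf3, a stress-induced relative of the ATF factors that binds the cAMP response element (chromosome 1, 191170296 to 191218039, minus strand), was in fewer cells than the other AP-1 genes in CPCC and CB. It was detected in 13.0% of mESC cells, 34.3% of CPCC cells and 47.0% of CB cells, and the median cell held 0 CPM in every culture. Its level was 4.28 CPM in mESC (9.45, 1.62 and 2.27), 73.1 CPM in CPCC (22.4 and 121) and 193 CPM in CB (259, 62.0 and 284). CB pool 2 lay between the CPCC pools. The signal was concentrated: 1 cell held 39.3% of the CPCC counts, and 1 cell at 5452 CPM held 40.5% of those of CB pool 1.

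Egr1, a zinc finger factor that ERK signalling induces through SRF (chromosome 18, 34859823 to 34864984, plus strand), had the largest fold of the 10 genes between CB and mESC. It was at 3.58 CPM in mESC (9.65, 0.16 and 1.64 in pools 1 to 3), 63.0 CPM in CPCC (37.3 and 87.0) and 1140.0 CPM in CB (1661, 131 and 1841). The pools did not overlap between cultures, and CB was 318 times mESC and 18.1 times CPCC. Egr1 was detected in 13.95% of mESC cells, 63.4% of CPCC cells and 84.9% of CB cells, with 95.7% and 59.0% in CB pools 1 and 2 and every cell of pool 3.

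Klf6, a Krüppel-like zinc finger factor (chromosome 13, 5861482 to 5870394, plus strand), was the gene for which CPCC and CB were most alike. Its level was 34.8 CPM in mESC (41.96, 31.4 and 31.8), 206 CPM in CPCC (121 and 286) and 249 CPM in CB (235, 180.4 and 318). All 3 CB pools lay above CPCC pool 1, and 2 of them below CPCC pool 2. The share of cells with Klf6 was higher in CPCC (85.7%, 79.6 to 90.5) than in CB (77.6%, 71.7 to 82.8), against the order of the CPM, so no order of these 2 cultures is read from it.

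Ier2, which encodes a nuclear protein of the early response (chromosome 8, 84661331 to 84662852, minus strand), was the member most widely detected in every culture. It was present in 91.6% of mESC cells, 92.6% of CPCC cells and 96.1% of CB cells. Its level was 113 CPM in mESC (175, 77.7 and 91.7 in pools 1 to 3), 179 CPM in CPCC (251 and 111) and 661 CPM in CB (696, 389 and 896). The CPCC and mESC pools overlapped, and CPCC pool 1 was the higher CPCC pool, against the order of the other 9 genes.

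Dusp1 and Zfp36 act as brakes on the response. Dusp1 is a phosphatase that inactivates p38, JNK and ERK (chromosome 17, 26505590 to 26562128, minus strand). That span includes a longer transcript, and the promoter stretch above belongs to a start inside it. It was at 100.5 CPM in mESC (109, 113 and 75.3 in pools 1 to 3), 338 CPM in CPCC (169 and 495) and 799 CPM in CB (754, 145 and 1419). Its share of cells was almost flat, 85.1%, 84.6% and 82.8% in mESC, CPCC and CB, while the median cell held 79.4, 93.4 and 316 CPM. The difference in Dusp1 thus lay in the amount per cell and not in the share of cells with a count. CB pool 2, at 145 CPM, was below both CPCC pools.

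Zfp36 (tristetraprolin) binds AU-rich elements and destabilises transcripts, Fos among them (chromosome 7, 28376784 to 28380253, minus strand). Its level was 4.53 CPM in mESC (3.50, 5.07 and 4.92), 46.8 CPM in CPCC (15.6 and 75.9) and 314 CPM in CB (290.0, 37.7 and 578). The mESC pools lay close together, CB pool 2 lay between the CPCC pools, and 1 cell held 29.6% of the CPCC counts. Dusp1 shares exon sequence on the opposite strand with Ergic1, and Zfp36 with Gm44710.

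Per length (CPM per kb of exon), the order of the 10 genes differed between cultures. Ier2 led in mESC with 74.0 CPM per kb, followed by Dusp1 with 30.4 and Klf6 with 7.94, and Fosb was last with 0.185. The pools of Ier2 and Dusp1 did not overlap, nor did those of Dusp1 and Klf6, nor did those of Fos and Junb, whereas every other neighbouring pair overlapped. In CPCC Ier2 (117 CPM per kb), Dusp1 (102) and Fos (78.9) came first, and every neighbour in the order overlapped with the next over the pools. In CB Fos led with 869 CPM per kb, before Ier2 with 435, Egr1 with 254 and Dusp1 with 241, and the pools of every neighbouring pair overlapped. Egr1 stood in place 8 of 10 in mESC and in place 3 in CB.

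Between cultures the members were compared by the log2 ratio of CPM plus 1, and a gene counts as higher or lower when this ratio reaches 1 in size, that is 2-fold. In CPCC against mESC, 9 of the 10 genes were higher and none lower, beside 13.9% higher and 6.82% lower of the 9246 genes with a mean of at least 10 CPM. Ier2, with a log2 ratio of 0.66, was the exception, but reached 1.09 without mESC pool 1, where 10 of 10 were higher. The median log2 ratio was 3.32 over the 10 genes and -0.04 over all genes compared, and the highest was that of Jun at 4.003. In 9 of the 10 every CPCC pool lay above every mESC pool, as it did in 22.6% of all genes. Without CPCC pool 2 the median was 2.02 and 9 genes were 2-fold higher, Fosb and Jun with a mean under 10 CPM. Ier2 (1.15) was then among them and Dusp1 (0.75) was not. Without the 14 cells of the macrophage-like cluster described below the median was 2.37 and 8 were 2-fold higher, Fosb with a mean under 10 CPM, while Dusp1 was at 0.86 and Ier2 at 0.62.

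In CB against mESC, 10 of 10 genes were higher, beside 27.1% higher and 15.3% lower of 9954 genes. The median log2 ratio was 6.01 against 0.15 over all genes, and the values ran from 2.54 for Ier2 to 7.96 for Egr1. Fos (6.91), Fosb (6.89) and Jun lay close together on this scale, and Junb (6.18), Zfp36 (5.83) and Atf3 (5.2) followed. Klf6 (2.80) and Dusp1 (2.98) were near Ier2. In all 10 every CB pool lay above every mESC pool, which was so in 32.2% of all genes. CB pool 2 alone, the pool poorest in fibroblast markers, gave a median of 3.51 with 9 of 10 higher, Dusp1 being the exception. Under TMM scaling 10 of 10 stayed higher, while the share of higher among all calls went from 64.0% to 53.4%.

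In CB against CPCC, 9 of 10 genes were higher and none lower, beside 16.4% higher and 9.12% lower of 10289 genes, with Klf6 (0.27) the exception. The median was 2.83 against 0.12 over all genes, and Egr1 (4.16), Fosb (3.28) and Junb (3.01) were among the largest values. In 5 genes, Fos, Fosb, Jun, Egr1 and Ier2, every CB pool lay above every CPCC pool, as in 21.1% of all genes. The comparison depended on the CB pool: with pool 2 alone the median was 0.60, 4 genes were higher, and Dusp1 was lower with -1.22. Scaling the cultures by TMM moved the median of all genes by -0.20 and the share of higher among all calls from 64.3% to 49.0%, and left 9 members higher.

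**Figure D2:**
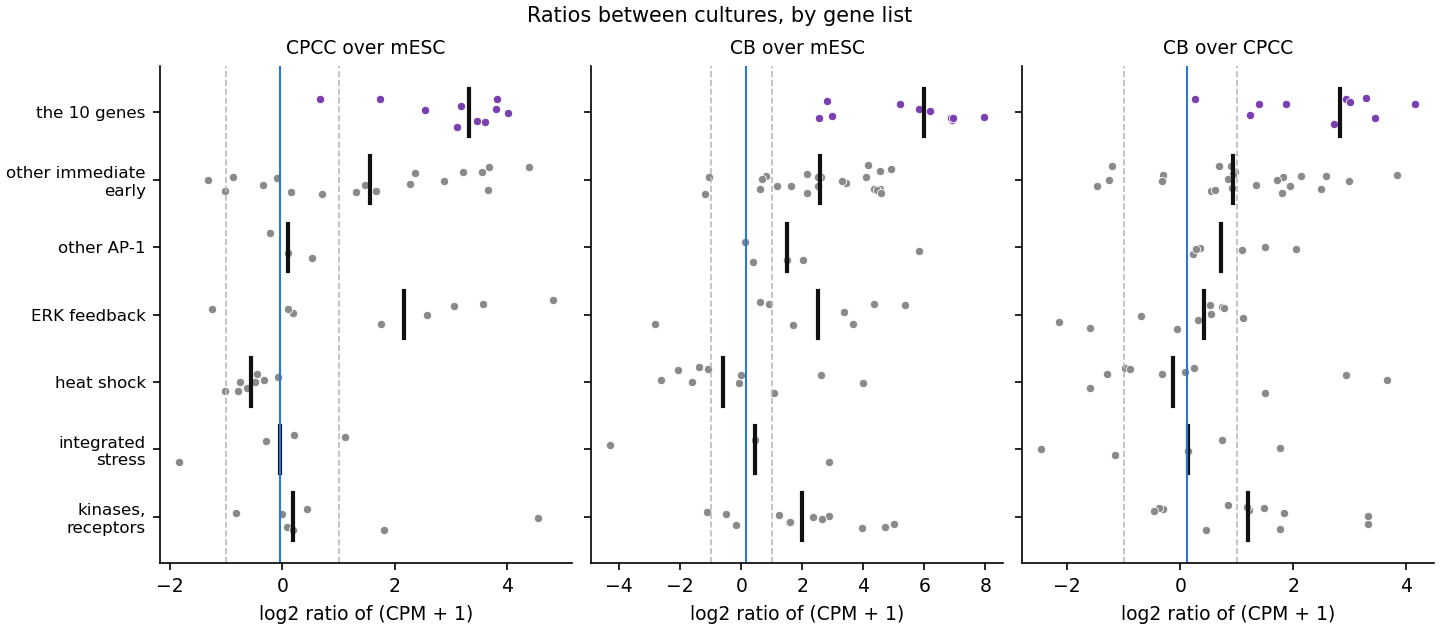
Log2 ratio of each gene (CPM plus 1) between cultures, by gene list, with a black bar for the list's median, a blue line for the median of all genes and dashed lines at 2-fold. The members' medians are 3.32, 6.01 and 2.83 for CPCC over mESC, CB over mESC and CB over CPCC, while heat shock genes have medians of -0.56, -0.58 and -0.12.

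The wider lists show what moved beside the members. Of all genes with a mean of at least 10 CPM, 13.9% were higher and 6.82% lower in CPCC than in mESC. In CB these shares were 27.1% and 15.3% against mESC, and 16.4% and 9.12% against CPCC. Of the other immediate early genes with a mean of at least 10 CPM, 11 of 18 were higher and 2 lower in CPCC than in mESC (median log2 ratio 1.57), and 17 of 22 were higher and 2 lower in CB than in mESC (2.57). In CB against CPCC, 10 of 23 were higher and 3 lower (0.93). Ccn1, a matrix protein gene and YAP target, was at 17.7 CPM in mESC, 390.1 in CPCC and 566 in CB. Nr4a1, an orphan nuclear receptor, was at 4.05, 6.25 and 103 CPM, with 124, 4.43 and 184 CPM in CB pools 1, 2 and 3. It was thus near the mESC level in CPCC and in CB pool 2. Against mESC, the lower genes of this list were Klf4 (-1.32) and Gadd45b (-1.02) in CPCC, and Klf2 (-1.18) and Sgk1 (-1.06) in CB. Klf4 and Klf2 are also part of the stem cell programme, and Klf4 was higher in CB than in mESC (1.17).

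Feedback genes of the ERK pathway were mostly higher in CPCC and CB than in mESC. In CPCC 5 of 8 were higher and 1 lower (median 2.16), and in CB 5 of 8 were higher and 1 lower (2.53). Beside these, 13.9% and 27.1% of all genes compared were higher. The mESC grew with the MEK inhibitor, whose part in this was not tested. Dusp6, the ERK phosphatase, was at 3.02 CPM in mESC, 112 in CPCC and 164 in CB. Its CB pools held 140.4, 162 and 177 CPM, so it did not share the low level of CB pool 2 seen in Fos and Egr1. Between CB and CPCC only 1 of 10 such genes was higher and 2 were lower. Etv5, an ETS factor of the same pathway, was at 195 CPM in mESC, 81.1 in CPCC and 26.3 in CB.

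Heat shock genes were mixed. In CPCC against mESC 0 of 8 were higher and 1 lower, beside 13.9% higher and 6.82% lower of all genes compared. In CB against mESC 3 of 10 were higher and 5 lower, beside 27.1% and 15.3%. Hspa1a, the inducible Hsp70, was at 0.77 CPM in mESC, 1.203 in CPCC and 27.0 in CB, where pools 1, 2 and 3 held 11.3, 0.55 and 58.0 CPM. Within CB, Hspa1a, Hspa1b, Hspb1 and Dnajb1 were 2-fold higher in pools 1 and 3 than in pool 2, as 7 of the members were, and Hsp90aa1, Hsp90ab1 and Hspe1 were lower. Hsp90aa1, a cytosolic Hsp90, was at 4742, 2326 and 770.2 CPM in the 3 cultures. Integrated stress genes were mixed, with 1 higher and 1 lower in CPCC (of 4) and in CB (of 3) against mESC. Ppp1r15a, a phosphatase subunit that ends the arrest of translation, was at 36.4, 80.1 and 273 CPM, whereas Asns, asparagine synthetase, was at 1652, 461 and 82.9 CPM. Of the other AP-1 subunits with a mean of at least 10 CPM, 0 of 3 were 2-fold higher in CPCC and 3 of 5 in CB than in mESC, and none was lower. Over all 9 listed, most of them low, the median log2 ratio of CPCC over mESC was 1.01, against 0.10 for those 3, and Fosl2 was at 3.80. Fosl2 was at 0.14, 14.9 and 64.7 CPM and Jund at 35.9, 52.0 and 149.5 CPM. With that mean, 2 of 7 upstream kinases, receptors and factors were higher in CPCC than in mESC, beside 13.9% of all genes. In CB against mESC 9 of 12 were higher, beside 27.1%, and 0 and 1 were lower in CPCC and CB. Elk3, a partner of SRF, was at 1.06, 47.2 and 65.2 CPM.

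Within CB, 7 of the 10 members were at least 2-fold higher in each of pools 1 and 3 than in pool 2 and none lower, beside 11.4% higher and 7.65% lower of 10586 genes. Taking the lower of pools 1 and 3, the fold over pool 2 was 12.7 for Egr1, 7.68 for Zfp36, 7.16 for Junb, 7.13 for Fos, 5.22 for Dusp1, 4.18 for Atf3 and 2.84 for Fosb. Jun (1.81), Ier2 (1.79) and Klf6 (1.31) did not reach 2-fold. Of the other immediate early genes 15 of 26 were higher and 0 lower. Marker lists moved with the same split: 9 of 10 fibroblast, 6 of 7 macrophage, 5 of 10 epithelial and 3 of 4 mesothelial markers were higher in pools 1 and 3, while 8 of 8 cardiomyocyte, 9 of 9 endothelial and 5 of 6 endoderm markers were lower. The part of cell type in the members' difference between pools was not tested in the sum. Values inside a cluster that can hold mixed cells are given below.

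Within CPCC, 9 of 10 members were at least 2-fold higher in pool 2 than in pool 1, beside 16.3% of 9516 genes. Ier2 was lower, beside 11.8% of genes lower. All 10 macrophage markers and all 7 fibroblast markers compared were higher in pool 2, and 9 of 10 pluripotent markers were lower. Within mESC, of the 4 members with a mean of at least 10 CPM, 1 (Fos) was at least 2-fold higher in pool 1 than in both other pools and none lower, beside 0.681% higher and 1.14% lower of 8661 genes. Egr1 was also highest there, at 9.65 CPM, but its mean was under 10 CPM.

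Cell by cell, more members reached 100 CPM in CB than in mESC or CPCC. Such a count rises with the level of each gene on its own, so it does not separate joint expression from level. Among cells with at least 100000 counts, at least 2000 genes and at most 20% mitochondrial counts, the median cell held 1 member at 100 CPM or more in mESC (190 cells), 2 in CPCC (166 cells) and 7 in CB (213 cells). By pool, the CB medians were 8, 4 and 8. At least 8 members reached 100 CPM in 0 of 190 mESC cells, in 6 CPCC cells (3.61%, 1.34 to 7.70), all from pool 2, and in 97 CB cells (45.5%, 38.7 to 52.5). In CB pools 1, 2 and 3 that share was 57.4%, 5.71% and 70.7%. All 10 reached it in 1 CPCC cell and 21 CB cells. Thinning gave 0%, 3.18% and 46.2% for the 3 cultures.

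**Figure D3:**
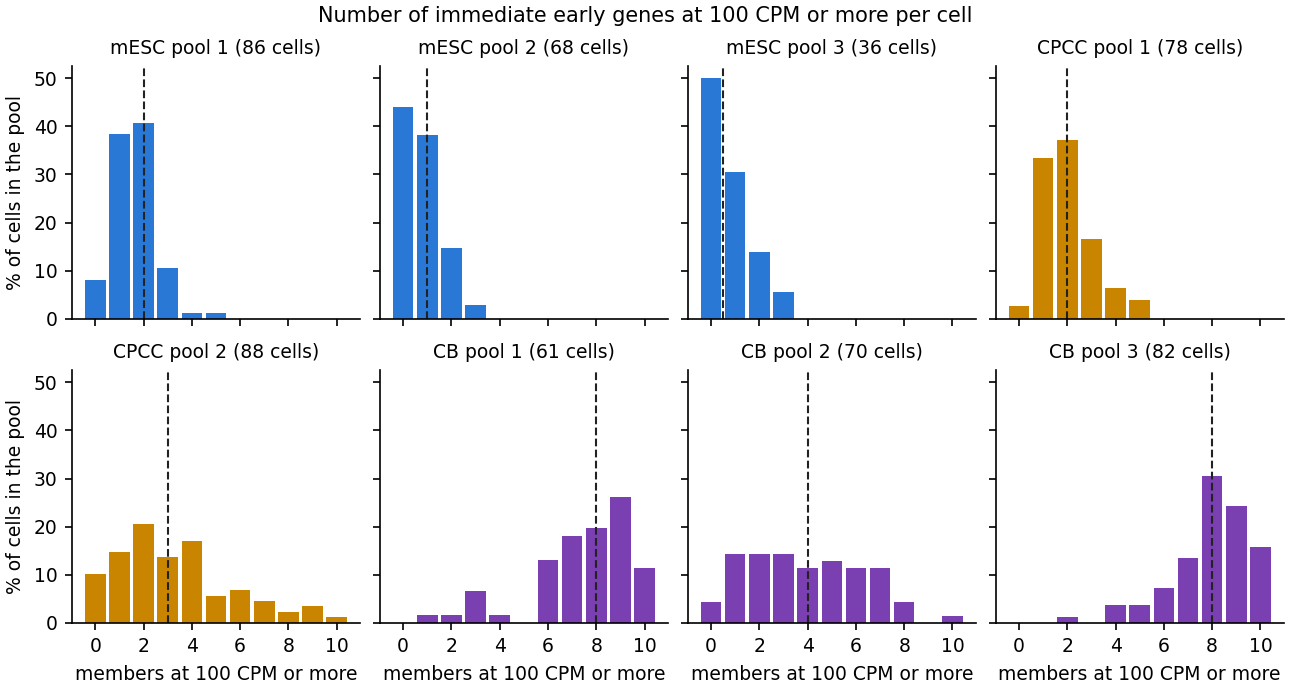
Share of the cells of each pool, in percent, by how many of the 10 genes reached 100 CPM in the cell, with a dashed line at the pool's median. CB pools 1 and 3 peak at high counts with medians of 8, and CB pool 2 has a median of 4, between the CPCC medians of 2 and 3 and those of the other CB pools.

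Clusters were made without the members and without the other immediate early genes, so the members' levels did not place the cells, although genes that vary with them could. In CB, cluster 1 (47 cells, fibroblast-like, led by Col1a2, Col3a1 and Mfap4) held 4071 CPM of Fos, 2337 of Egr1 and 1017 of Junb. Cluster 2 (41 cells, epithelial-like, led by Wfdc2, Upk1b and Cyp2f2) held 2989.6 CPM of Fos, 1371 of Egr1 and 1723 of Dusp1. Cluster 3 (38 cells, fibroblast-like, led by Col3a1, Col1a2 and Dcn) held 2395 CPM of Fos and 1771 of Egr1. High levels were thus found in fibroblast-like and epithelial-like cells alike, but the filtered cells of these 3 clusters all came from pools 1 and 3. Among pool 1 cells alone, Fos was 1711, 2016, 2840.2 and 2857 CPM in clusters 0, 1, 2 and 3 (14, 9, 10 and 28 cells). Atf3 was higher in the epithelial-like cells, with 669 CPM, than in fibroblast-like cluster 1, with 114 CPM. Cluster 4 (19 cells, endothelial-like, led by Ramp2, Mest and Kdr), whose cells all came from pool 2, held 256 CPM of Fos and 96.0 of Egr1, against 388 and 143 CPM in the pool 2 cells of cluster 0.

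Cluster 0 of CB (68 cells, led by Stmn1, Tubb5 and H2az1, and left unnamed) had cells in pools 1 and 2, 14 and 51 of them. Its genes highest by fold included Afp, Apoa1 and Ttn, so it can hold more than 1 cell type. The pools can be set side by side within this cluster, but their cells in it can differ in type. Fos was 1711 CPM in its pool 1 cells and 388 CPM in its pool 2 cells. Egr1 was 1177 against 143 CPM, Junb 346 against 46.2, Dusp1 413 against 113 and Zfp36 151 against 26.8. Fosb (265 against 118 CPM) and Jun (258 against 118) were also 2-fold higher in the pool 1 cells, and Ier2 (525 against 372) did not reach 2-fold. Atf3 (25.97 against 59.0 CPM) was lower there, and Klf6 was lower as a sum (150.5 against 179 CPM) but higher by the median cell (187 against 129 CPM). In all, 7 of the 10 genes were 2-fold higher and 1 lower in the pool 1 cells, beside 16% higher and 15.7% lower of 9891 genes.

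**Figure D4:**
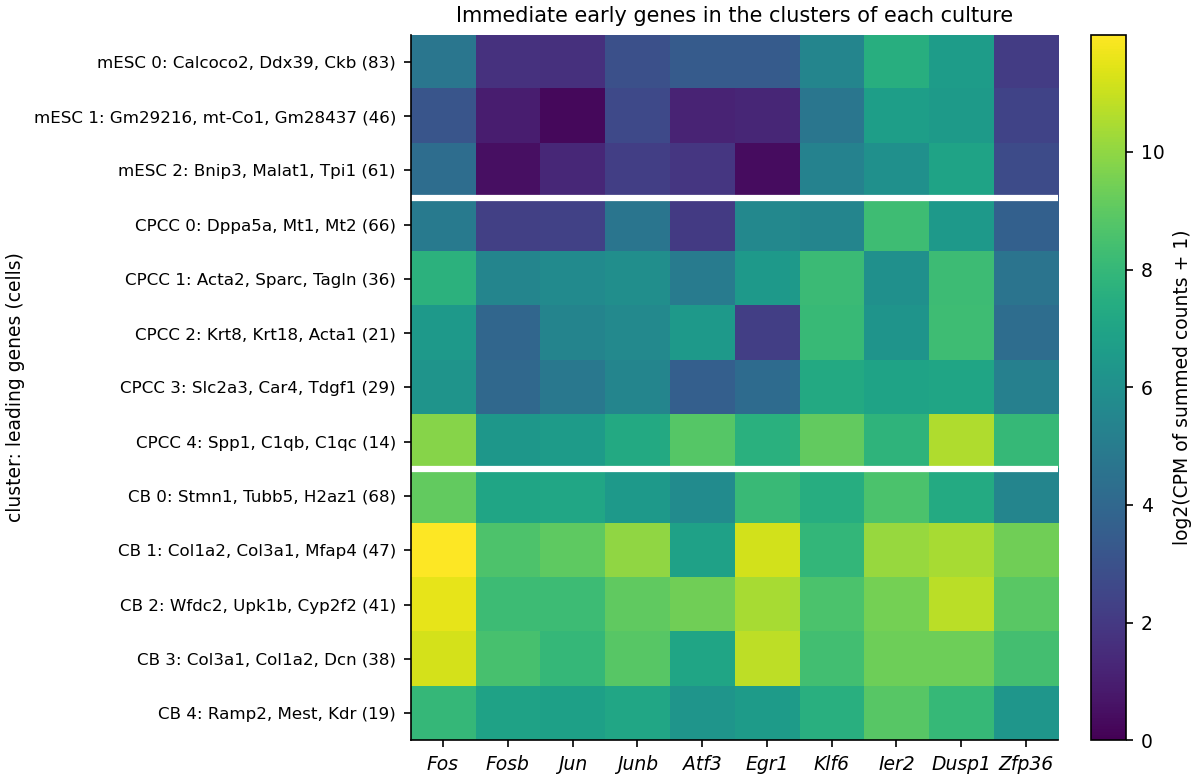
Level of the 10 genes in each cluster, as log2 of CPM plus 1, with the leading genes and the number of cells of each cluster. Fos is 4071 CPM in the fibroblast-like CB cluster 1 and 256 CPM in the endothelial-like CB cluster 4.

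In CPCC, cluster 4 (14 cells of pool 2) was macrophage-like, led by Spp1, C1qb and C1qc, with all 10 macrophage markers in most cells. It held 1529.5 CPM of Dusp1, 898 of Fos, 559.6 of Klf6, 451 of Atf3, 261 of Zfp36, 219 of Ier2 and 193 of Egr1, and its median cell had 7 members at 100 CPM or more. Cluster 0 (66 cells, 57 of pool 1, pluripotent-like) held 307 CPM of Ier2 but 30.2 of Fos, 43.2 of Klf6 and 3.97 of Jun. Cluster 1 (36 cells, led by Acta2, Sparc and Tagln) was high in Klf6 (288 CPM) and Fos (209 CPM) and low in Ier2 (63.6 CPM). Cluster 2 (21 cells, led by Krt8, Krt18 and Acta1) had Klf6 at 269 CPM with Egr1 at 3.63 CPM. Within these clusters the summed level of Fos was not higher in pool 2, but that of some other members was. Fos in pool 1 and pool 2 cells was 32.2 and 4.75 CPM in cluster 0 (57 and 9 cells). It was 224 and 207 CPM in cluster 1 (6 and 30 cells) and 98.0 and 62.1 CPM in cluster 2 (13 and 8 cells). By the median cell Fos was 1.82 and 0, 38.0 and 92.0, and 84.9 and 8.67 CPM in clusters 0, 1 and 2. Junb sums there were 24.2 and 21.3, 32.4 and 65.9, and 34.0 and 75.9 CPM. Egr1 sums were 48.2 and 27.0, 38.3 and 95.4, and 0.746 and 8.78 CPM. In cluster 2 Klf6 was 342 and 140.2 CPM and Dusp1 390 and 164 CPM, whereas in cluster 0 Dusp1 was 81.3 and 165 CPM. In mESC, cluster 0 (83 cells, 81 of pool 1) held 181 CPM of Ier2 and 9.86 of Egr1, and cluster 2 (61 cells) held 63.9 CPM of Ier2.

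Co-variation over cells, as Spearman's correlation between members, was near 0 in mESC and high in CB. These values describe cells that share a culture and a range of depth and come from all of its pools. Over the 45 pairs the median correlation was 0.056 in mESC (190 cells, from -0.129 to 0.248), 0.368 in CPCC (166 cells, from -0.319 to 0.731) and 0.507 in CB (213 cells, from 0.068 to 0.837). The correlation was 0.3 or more in 0, 27 and 32 of the 45 pairs. The strongest pair was Fos with Fosb in CPCC and Fos with Egr1 in CB, and the weakest was Jun with Ier2 in CPCC and Junb with Klf6 in CB. Over all mESC cells the widely detected pairs were also near 0, with 0.049 for Ier2 with Dusp1, 0.039 for Klf6 with Ier2 and 0.080 for Klf6 with Dusp1. Within mESC pools 1, 2 and 3 they differed. Ier2 with Dusp1 had -0.034, 0.088 and 0.212, Klf6 with Ier2 0.122, -0.278 and 0.362, and Klf6 with Dusp1 -0.038, 0.132 and 0.378.

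**Figure D5:**
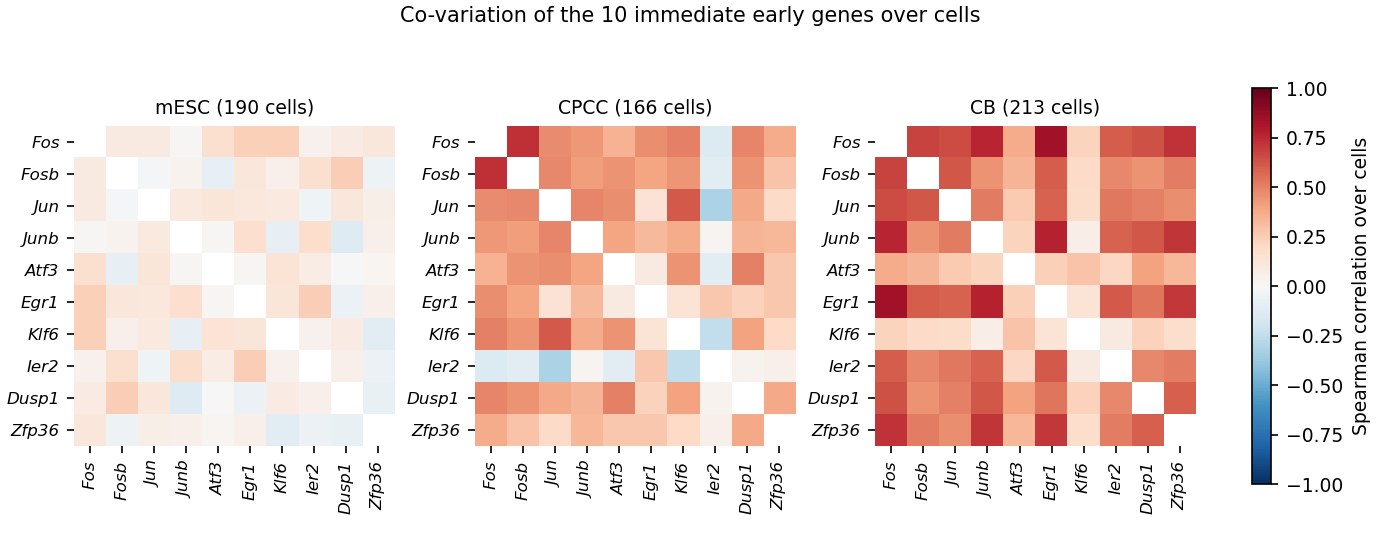
Spearman's correlation over cells between the 10 genes in mESC (190 cells), CPCC (166 cells) and CB (213 cells). The median over the 45 pairs is 0.056, 0.368 and 0.507, and in CB the rows of Klf6 and Atf3 are paler than the rest.

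Co-variation was also taken within pools and clusters. Within pools the median correlation was 0.341, 0.330 and 0.433 in CB pools 1, 2 and 3, and 0.256 and 0.374 in CPCC pools 1 and 2. Within CB clusters 0 to 4 it was 0.487, 0.367, 0.474, 0.273 and 0.173, and within CPCC clusters 0 to 4 it was 0.120, 0.215, 0.216, 0.190 and 0.411. In 4 of the 5 CPCC clusters it was thus well under the value over the culture. The members thus still varied together among cells of 1 pool, in all 3 CB pools and CPCC pool 1 less than over the whole culture, and in CPCC pool 2 about as much. Against the summed rank of the other 9 genes in CB, Fos had a correlation of 0.876, Egr1 0.801, Zfp36 0.744 and Junb 0.740, whereas Atf3 had 0.391 and Klf6 0.221. In CPCC Ier2 had -0.129 over the culture, against 0.687 for Fos, but -0.132 in pool 1 and 0.193 in pool 2. The pair of Jun with Ier2 likewise went from -0.484 in pool 1 to 0.071 in pool 2.

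The mean rank over the 10 genes was set beside other properties of the cells. With counts per cell its correlation was -0.124, 0.085 and -0.155 in mESC, CPCC and CB. With the number of genes detected it was -0.041, -0.053 and -0.388, and nearer to 0 within CB pools 1, 2 and 3 (-0.042, -0.076 and -0.186). With summed heat shock genes it was 0.060, -0.496 and -0.479, but inside CB pools 1, 2 and 3 it was 0.005, -0.389 and 0.114. Hspb1 and Dnajb1 on their own reached 0.3 in CB. With the mitochondrial percent it was -0.345, 0.053 and 0.019, and -0.054, -0.421 and -0.198 in mESC pools 1, 2 and 3, and its part in the mESC values was not tested. With summed fibroblast markers in CB it was 0.411, and 0.283, 0.279 and 0.068 within the pools. With macrophage markers in CPCC it was 0.313, and 0.072 and 0.435 within pools 1 and 2. With fibroblast markers there it was 0.378 (0.448 and 0.202 within pools), and with pluripotent markers -0.412 (-0.384 and -0.246).

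Genes most like the members, by correlation with the mean rank among genes in at least 25% of the filtered cells, differed between cultures. In CB they included Nr4a1 (0.681), Btg2 (0.633), Cebpb (0.601) and Ier3 (0.601), of 9951 genes. Within CB pools 1, 2 and 3 Nr4a1 had 0.457, 0.257 and 0.507, and Btg2 had 0.470, 0.397 and 0.416. Cebpb had 0.513, 0.041 and 0.286 there, and Ier3 had 0.237, 0.301 and 0.388. Of these Nr4a1, Btg2 and Ier3 are immediate early genes themselves. In CPCC they were Runx1 (0.570), Ier3 (0.562), Tgfbr2 (0.560), Irf2 (0.542) and B2m (0.541) of 12228 genes. Their values ran from 0.378 to 0.462 within CPCC pool 1 and from 0.519 to 0.593 within pool 2. In mESC they were Hmga1 (0.403), Mbd3 (0.345), Atf4 (0.343), Ftl1 (0.336) and Gm5487 (0.328) of 12212 genes. Their values ran from 0.075 to 0.293, from 0.156 to 0.319 and from -0.077 to 0.362 within mESC pools 1, 2 and 3. Of the other immediate early genes that could be ranked, 0 of 19 in mESC, 10 of 23 in CPCC and 12 of 24 in CB had a correlation of 0.3 or more, beside 0.164%, 4.92% and 2.54% of all genes ranked.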

How the data were processed

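The authors captured single cells on the Fluidigm C1, made full-length cDNA (SMART-Seq v4, Nextera XT) and aligned paired reads to GRCm38 (mm10) with STAR 2.7. The deposited mESC and CB tables hold unscaled estimated counts per gene and cell (26.4% and 27.4% of values above 0 were not whole within 0.001), and the deposited CPCC table holds whole counts. The counting model and strand were not given in the sources used here. In CPCC, 208 rows without a gene, 23 rows whose symbol had become a date (0.139% of counts) and 2 columns matching no sample were left out. No 2 cell columns of a table were identical.

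The 10 members and all lists were chosen with earlier results of these data known. The genes named are the members, genes of the lists, cluster leaders and the 5 genes most like the members, of which 1 in CB is not reported here. Counts were summed over cells, scaled to CPM and compared as log2 ratios with a pseudocount of 1 CPM (Python 3.11.15, numpy 2.4.6, pandas 2.3.3, scipy 1.17.1, matplotlib 3.10.9). Thinning and intervals used rounded values. Clusters used Seurat 5.3.0 (R 4.3.3), a later version than the study's, with its normalisation, gene selection and resolution of 0.6. The 10 components were chosen here, and the members and other immediate early genes were left out. No doublet caller was run. Alternatives were TMM (edgeR 4.0.16), DESeq2 1.42.0 size factors, mean per-cell CPM, other pseudocounts and filters, and leaving out pools or cells. The calling step was tested on simulated data.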

Additional observations from a re-analysis of the deposited data

How the results depend on the processing

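The median log2 ratio of CPCC over mESC (3.32) was 3.46 and 2.03 with pseudocounts of 0.1 and 10 CPM, 2.98 with mean per-cell CPM (2.95 over filtered cells), 3.22 without each gene's top cell, 2.02 without CPCC pool 2, 2.37 without CPCC cluster 4 and 3.73 without mESC pool 1. That of CB over mESC (6.01) was 5.82 with TMM, 5.79 with DESeq2 size factors, 5.71 with mean per-cell CPM, 6.25 and 4.52 with the other pseudocounts, 6.64 without CB pool 2, 3.51 with CB pool 2 alone and 6.25 without mESC pool 1. That of CB over CPCC (2.83) was 2.63 with TMM, 2.64 with DESeq2, 2.96 with mean per-cell CPM (2.998 filtered), 2.59 with 10 CPM, 3.001 without the top cell, 3.38 without CB pool 2, 0.60 with it alone, 4.001 without CPCC pool 2 and 3.36 without CPCC cluster 4. With CB pool 2 alone, 4 members were higher and 1 lower than in CPCC (9 and 0 with all pools), and Atf3 (-0.23), Dusp1 (-1.22), Zfp36 (-0.30) and Klf6 (-0.19) turned their direction. All other counts of members stayed within 1.5 times, and Klf6 in CB over CPCC was 1.03 without CPCC pool 2. TMM and DESeq2 shifted the median of all genes in CB over mESC by -0.19 and -0.22, and the share of higher among all calls from 64.0% to 53.4% and 51.5%. In CB over CPCC DESeq2 shifted it by -0.19 and the share to 49.3%. The median correlation between members in CB (0.507) was 0.341 in pool 1 and 0.330 in pool 2. The settings on CB pools, CPCC pools, cluster 4, mESC pool 1 and filtered cells were chosen after seeing the data, and the causes were not tested.

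No paired analysis was possible because each culture is 1 sample and the pools carry no number shared across cultures. With 1 sample per culture, differences between cultures have no replicate check, and levels near 1 CPM in mESC rest on few cells, so folds over mESC depend on the pseudocount.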
